A study of Homo sapiens with 8 samples.

Results

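Cholesterol and fatty acids are made by enzymes whose genes are switched on together, and 36 genes of this programme were followed through a stepwise culture of human embryonic stem cells towards pharyngeal endoderm. They were taken by symbol from the 58780 genes of the GENCODE 29 annotation, and all 36 were among the 17446 genes that passed the count filter. By role they comprise 8 genes of the acetyl-CoA and mevalonate steps, 11 of the squalene and sterol steps, 5 regulators of the SREBP factors, 7 fatty acid enzymes, 2 genes of sterol transport and uptake, and 3 genes of the kind switched on by LXR receptors. RNA was sequenced at 4 stages, with 2 libraries each. The stages are the undifferentiated H1 cells, labelled hESC, then definitive endoderm, labelled hDE, and 2 foregut stages, the anterior hAFE and the pharyngeal hPFE. H1 is an established embryonic stem cell line, and all 4 stages come from it, so any difference seen is within a single genetic background. The labels give no agent, dose or day for any stage. The hESC and hDE libraries are marked in the titles as re-analysed, and the hAFE and hPFE libraries carry no such mark. In the comparisons of hAFE with hDE and of hPFE with hESC, stage and this origin of the libraries therefore cannot be told apart. Nothing in the labels tells whether both libraries of a stage are from cultures grown apart, so p-values measure only the spread between these libraries and that spread may be technical.

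Cells make cholesterol from acetyl-CoA through mevalonate, farnesyl diphosphate, squalene and lanosterol. The transcription factors SREBP-2, encoded by SREBF2, and SREBP-1, encoded by SREBF1, are made as membrane precursors. When sterols are scarce, the escort protein SCAP carries them to the Golgi, where they are cut and released to switch on genes of sterol and fatty acid synthesis. When sterols are plentiful, the INSIG proteins hold SCAP in the endoplasmic reticulum. LXR receptors respond to oxysterols and switch on genes of cholesterol efflux, such as ABCA1 and ABCG1, and MYLIP, whose protein marks lipoprotein receptors for breakdown.

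SREBP proteins bind sterol response elements in promoters, usually beside the factor NF-Y, which binds the letters CCAAT. Promoter sequences from RefSeq on the build GRCh38.p14, 250 bases before to 50 after each start, were matched for 31 of the 36 genes. Those of ACAT2, FDFT1, SQLE, FASN and ABCG1 were not matched. A single RefSeq start was kept per symbol, and some lie away from the start of the counted gene. The IDI1 window (chr10:1056655-1056954) lies outside the counted gene (chr10:1039152-1049170). The windows of PMVK, MVK, CYP51A1, EBP, SC5D, DHCR7, SCAP, ACLY, ELOVL6, FADS1, FADS2 and NPC1 lie within the counted genes. Both strands were searched for the response element TCACNCCAC and for CCAAT. The NF-Y letters were present in 18 of the 31 promoters, against 35.7% of 27305 promoters in the table and 36.6% of the 11764 promoters of tested genes. They were present in 8 of 9 promoters of the squalene and sterol steps and in 4 of 7 of the mevalonate steps. Among the regulators 2 of 5 held them, among the fatty acid enzymes 2 of 6, in sterol transport 1 of 2 and in the LXR-type genes 1 of 2. TCACNCCAC was present in 1 of the 31, that of SREBF2, against 1.15% of all promoters, and with at most 1 letter off in 12 of the 31, against 24.2% of all promoters. The match is TCACCCCAC and lies 133 bases before the start, with a CCAAT on the opposite strand following it. The Sp1 letters GGGCGG were present in 28 of 31 promoters, against 68.7% of the promoters of tested genes, and the E-box CACGTG in 5 of 31, against 9.89%. These matches describe letters, and no binding was measured.

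The 250 bases before the start are shown for 5 genes, 5′ to 3′ on the strand of the gene, with the response element and each CCAAT, or ATTGG where it lies on the other strand, in capitals. SREBF2 (chr22:41832855-41833104, plus strand) is shown for its response element. INSIG1 (chr7:155297628-155297877, plus strand) is shown as the gene with the largest fall in hDE. HMGCS1 (chr5:43313413-43313662, minus strand) and MVK (chr12:109573544-109573793, plus strand) are enzymes that fell in hDE and rose again in hAFE. GGPS1 (chr1:235326966-235327215, plus strand) is an enzyme of the same pathway that passed the test in neither comparison and holds neither set of letters. These 5 genes do not stand for the set. Of the 24 matched promoters of genes called lower in hDE, 17 held CCAAT, as did 1 of the 6 not called. IDI1 and CYP51A1, both called lower, held none, and TM7SF2, not called, held 1. A link between these letters and the calls was not tested.
SREBF2: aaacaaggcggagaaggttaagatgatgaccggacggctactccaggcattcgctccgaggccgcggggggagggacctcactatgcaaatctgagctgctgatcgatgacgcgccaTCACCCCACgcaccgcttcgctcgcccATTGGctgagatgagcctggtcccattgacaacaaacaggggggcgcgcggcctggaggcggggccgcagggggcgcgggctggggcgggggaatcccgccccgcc
INSIG1: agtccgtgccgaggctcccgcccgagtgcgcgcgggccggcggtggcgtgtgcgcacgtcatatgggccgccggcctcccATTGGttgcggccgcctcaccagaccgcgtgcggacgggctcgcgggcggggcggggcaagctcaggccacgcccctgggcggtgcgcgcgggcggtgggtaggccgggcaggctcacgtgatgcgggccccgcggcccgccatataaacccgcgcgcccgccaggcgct
HMGCS1: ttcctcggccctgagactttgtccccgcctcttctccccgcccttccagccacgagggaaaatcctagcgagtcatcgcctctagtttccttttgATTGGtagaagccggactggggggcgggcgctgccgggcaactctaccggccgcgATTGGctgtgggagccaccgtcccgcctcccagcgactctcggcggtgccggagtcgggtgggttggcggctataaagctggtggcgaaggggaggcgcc
MVK: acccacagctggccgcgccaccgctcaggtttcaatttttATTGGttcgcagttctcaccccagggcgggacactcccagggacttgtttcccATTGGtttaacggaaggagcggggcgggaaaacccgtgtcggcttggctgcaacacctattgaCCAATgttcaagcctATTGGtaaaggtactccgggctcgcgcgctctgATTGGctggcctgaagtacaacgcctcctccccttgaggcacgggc
GGPS1: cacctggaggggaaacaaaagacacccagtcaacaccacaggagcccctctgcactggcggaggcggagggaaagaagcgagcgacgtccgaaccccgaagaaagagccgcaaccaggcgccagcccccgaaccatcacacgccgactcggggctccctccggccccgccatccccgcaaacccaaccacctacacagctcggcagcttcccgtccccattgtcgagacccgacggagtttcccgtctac

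Libraries held 12687161 to 17802900 estimated counts. Levels are in CPM, the usual unit of counts scaled to library size, after TMM scaling. A fold change is the later stage over the earlier on the log2 scale, ± its SE, with an adjusted p from edgeR's quasi-likelihood test over all 17446 genes, and a change is called where that p is under 0.05. Where leaving out a single library ends a call, the adjusted p without that library follows the first, and "either library" means each of the pair left out in turn. The share of mitochondrial ribosomal RNA was 10.6% to 18.4%, and that of 7SL RNA 3.79% to 18.2%, highest in the hDE libraries. The hDE libraries also had the lowest TMM factors, 0.872 and 0.855, against 0.993 and 0.995 in hESC. The SD of the log2 difference between the libraries of a stage, over 9852 genes at 10 CPM or more, was 0.31 for hESC, 0.27 for hDE, 0.59 for hAFE and 0.56 for hPFE. Stem cell markers summed to 1510.2 to 1582 CPM in hESC and to at most 162 CPM in any other library, and definitive endoderm markers to 8289 to 9019 CPM in hDE and at most 80.2 CPM elsewhere, as labelled. Foregut markers summed to 129.98 to 131 CPM in hESC, where SOX2 is shared with stem cells, 37.8 to 40.2 CPM in hDE, 169 to 309 CPM in hAFE and 225 to 365 CPM in hPFE. RNA-seq of a bulk culture gives shares of RNA, so fewer cells that make a transcript and less of it per cell cannot be told apart.

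Across the whole set, most genes were highest in stem cells and lowest in definitive endoderm. By stage means, 29 of the 36 genes were highest in hESC. The lowest mean was that of hESC for 3 genes, of hDE for 21, of hAFE for 4 and of hPFE for 8. Such counts of highest and lowest stages were not made for all tested genes. In hDE against hESC, 28 genes fell and 1 rose, with a median log2 fold change of -1.32, while 41.9% of all tested genes were called, 21.6% lower and 20.3% higher, with a median of -0.01. In hAFE against hDE, 15 rose and 1 fell, with a median of 0.70, against 30.2% of all genes called, 15.0% higher and 15.2% lower, with a median of 0.01. In hPFE against hAFE, 1 rose and 3 fell, with a median of -0.36, against 7.49% of all genes called, 4.77% higher and 2.71% lower, with a median of -0.03. In hPFE against hESC, 1 rose and 24 fell, with a median of -0.99, against 45.0% of all genes called, 21.6% higher and 23.3% lower, with a median of 0.02. Of the 36 genes, the 77.8% called lower in hDE against hESC, the 41.7% called higher in hAFE against hDE and the 66.7% called lower in hPFE against hESC were above the background shares. Between hPFE and hAFE 8.33% of the 36 were called lower and 2.78% higher, against 2.71% and 4.77% of all genes. Those shares rest on only 4 calls, and none of the 4 held under every alternative analysis. On the deposited TPM values, as log2(TPM + 1), where the median of all genes was 0.36 in hPFE against hESC, 4 of the 36 rose and 8 fell in that comparison. The first 2 comparisons share the hDE libraries, and the comparisons with hESC share the hESC libraries, so their directions are not independent of each other.

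**Figure D1:**
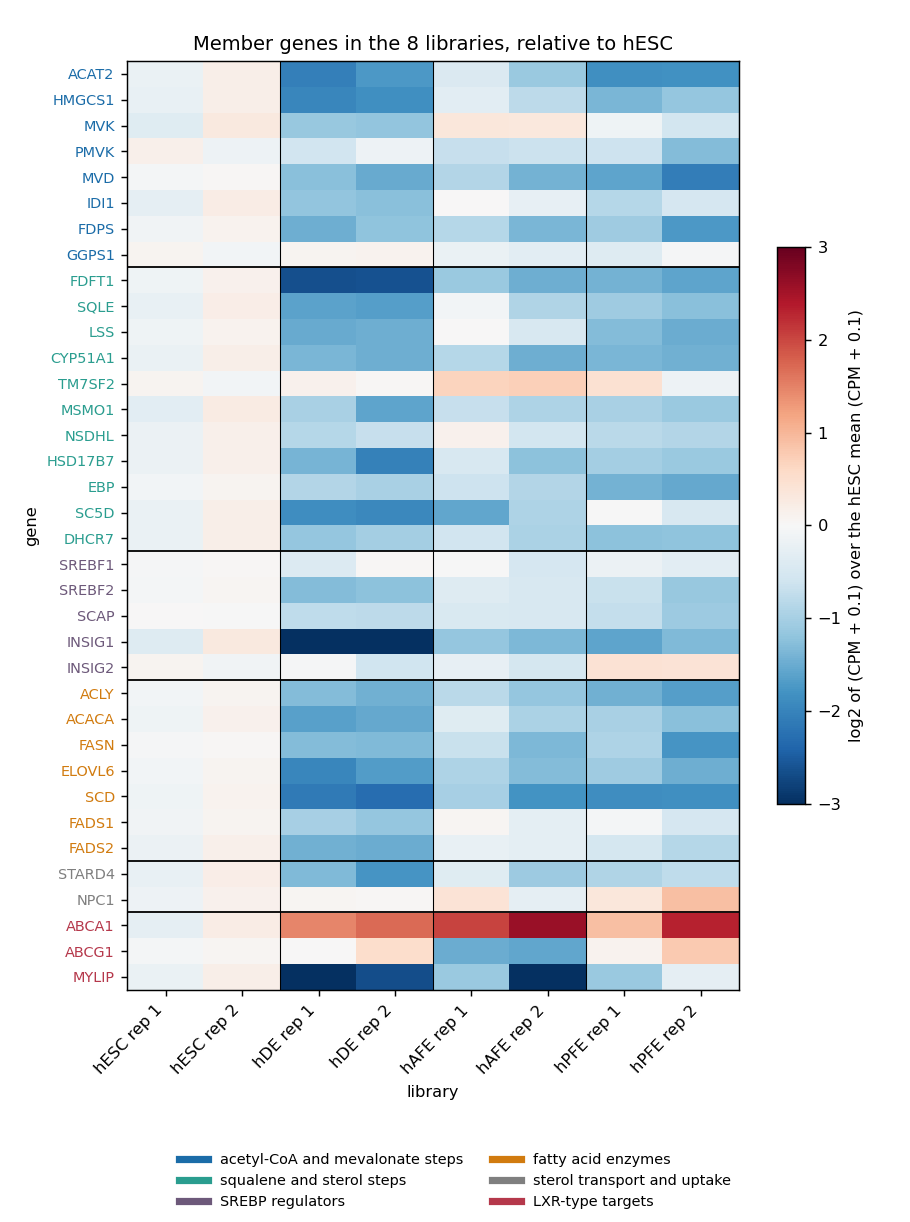
Level of each of the 36 genes (rows, grouped by role) in each of the 8 libraries (columns, in stage order), as log2 of CPM + 0.1 over the hESC mean of CPM + 0.1, on a colour scale that ends at -3 and 3. Blue dominates the hDE columns, where 28 genes fell against hESC, and ABCA1 near the bottom is the gene with the strongest red.

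**Figure D2:**
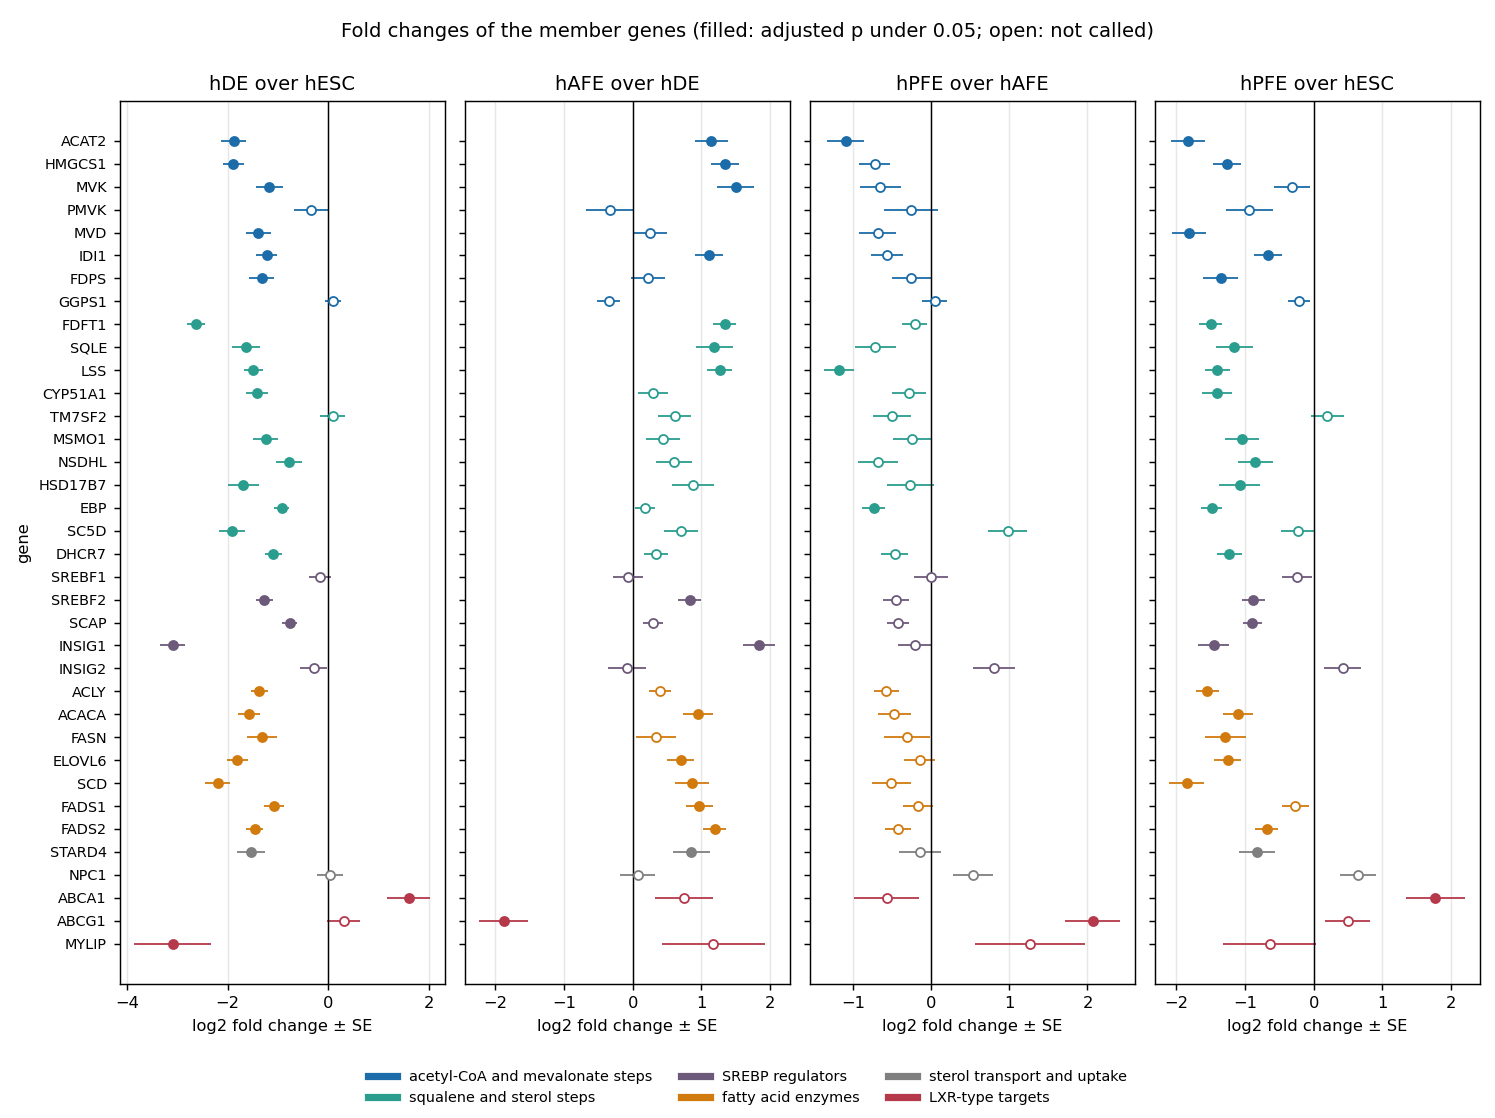
Log2 fold change ± SE (x axis) of the 36 genes (y axis) in each of 4 comparisons, with filled points at an adjusted p under 0.05 and open points otherwise. The points lie left of 0 for 31 genes in hDE over hESC and right of 0 for 31 genes in hAFE over hDE.

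All 8 genes of the acetyl-CoA and mevalonate steps were expressed, and 6 of them fell in hDE. Their summed level was 971 and 1234 CPM in hESC, 358 and 392 CPM in hDE, 841 and 615 CPM in hAFE and 454 and 465 CPM in hPFE. The hDE mean was 33.99% of the hESC mean, the hAFE mean 66.1% and the hPFE mean 41.7%. In hDE against hESC 6 genes fell and 2 were not called, in hAFE against hDE 4 rose, in hPFE against hAFE 1 fell, and in hPFE against hESC 5 fell.

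HMGCS1 (ENSG00000112972.14, chr5:43289395-43313512, minus strand, hg38) encodes the cytosolic synthase that makes HMG-CoA, the precursor of mevalonate. It had 385 and 509 CPM in hESC, 115 and 126 CPM in hDE, 356 and 259 CPM in hAFE, and 174 and 199 CPM in hPFE. No 2 stages overlapped in their libraries. HMGCS1 fell in hDE against hESC (log2 fold change -1.89 ± 0.21, adjusted p = 0.000482), to 26.95% of the hESC mean, and rose in hAFE against hDE (log2 fold change 1.35 ± 0.21, adjusted p = 0.00251). In hPFE it was again below hESC (log2 fold change -1.26 ± 0.20, adjusted p = 0.00249), while its value against hAFE did not pass (log2 fold change -0.72 ± 0.20, adjusted p = 0.0715). ACAT2, the thiolase that joins acetyl-CoA units at the entry to the pathway, had 228 and 295 CPM in hESC, 62.9 and 79.1 CPM in hDE, 193 and 122 CPM in hAFE, and 72.5 and 74.6 CPM in hPFE. ACAT2 fell in hDE (log2 fold change -1.88 ± 0.25, adjusted p = 0.00103), rose in hAFE against hDE (log2 fold change 1.15 ± 0.24, adjusted p = 0.0103, and 0.0908 without hDE replicate 1) and was 1 of the 3 genes that fell in hPFE against hAFE (log2 fold change -1.09 ± 0.24, adjusted p = 0.0369, and 0.0717 to 0.0919 without either hESC library, either hDE library, hAFE replicate 1 or either hPFE library). That last call was lost in 12 of 19 alternative analyses, with adjusted p up to 0.281. Its hPFE libraries were close to its hDE libraries in level.

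MVK, mevalonate kinase, had 12.9 and 20.5 CPM in hESC, 7.57 and 7.24 CPM in hDE, 21.3 and 20.7 CPM in hAFE, and 15.4 and 11.4 CPM in hPFE. Both hAFE libraries of MVK were above both hESC libraries, at 126% of the hESC mean. It fell in hDE against hESC (log2 fold change -1.17 ± 0.27, adjusted p = 0.0109, and 0.0648 to 0.0856 without hESC replicate 2 or either hDE library) and rose in hAFE against hDE (log2 fold change 1.50 ± 0.27, adjusted p = 0.00528, and 0.0517 without hDE replicate 2), and hPFE against hESC gave -0.32 ± 0.26, adjusted p = 0.349. IDI1, the isomerase of the isoprene units, had 97.8 and 139 CPM in hESC, 52.2 and 49.2 CPM in hDE, 119.7 and 100.4 CPM in hAFE, and 65.4 and 83.6 CPM in hPFE. IDI1 fell in hDE (log2 fold change -1.22 ± 0.21, adjusted p = 0.00302) and rose in hAFE against hDE (log2 fold change 1.12 ± 0.21, adjusted p = 0.00579, and 0.0589 without hDE replicate 2), to 93.1% of the hESC mean.

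FDPS and MVD fell in hDE and did not pass in hAFE against hDE. FDPS, which makes farnesyl diphosphate, had 166 and 191 CPM in hESC, 64.9 and 77.2 CPM in hDE, 97.7 and 68.4 CPM in hAFE, and 85.3 and 54.2 CPM in hPFE. The hDE and hAFE libraries of FDPS overlapped, with a fall in hDE against hESC (log2 fold change -1.33 ± 0.25, adjusted p = 0.00511, and 0.0523 without hDE replicate 1) and 0.23 ± 0.25 in hAFE against hDE (adjusted p = 0.534). MVD, the decarboxylase that makes the isoprene unit, had 43.3 and 46.2 CPM in hESC, 18.6 and 15.6 CPM in hDE, 24.1 and 16.8 CPM in hAFE, and 14.9 and 10.5 CPM in hPFE. MVD fell in hDE (log2 fold change -1.39 ± 0.24, adjusted p = 0.00329) and in hPFE against hESC (log2 fold change -1.81 ± 0.24, adjusted p = 0.00114), where its mean was 28.5% of that in hESC, the second lowest of these 8 genes after ACAT2.

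PMVK and GGPS1 were the 2 genes of this group that passed in none of the 4 comparisons. PMVK, phosphomevalonate kinase, was low throughout, with 6.67 and 5.37 CPM in hESC, 4.01 and 5.43 CPM in hDE, 3.7005 and 3.802 CPM in hAFE, and 3.89 and 2.38 CPM in hPFE. Its smallest adjusted p was 0.0551, in hPFE against hESC. GGPS1 makes geranylgeranyl diphosphate, which leaves the sterol pathway to modify proteins. It had 31.8 and 28.7 CPM in hESC, 32.2 and 32.3 CPM in hDE, 26.2 and 24.4 CPM in hAFE, and 23.01 and 29.3 CPM in hPFE. In hDE against hESC its log2 fold change was 0.09 ± 0.16 (adjusted p = 0.671), and its levels in all 8 libraries lay between 23.0 and 32.3 CPM.

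**Figure D3:**
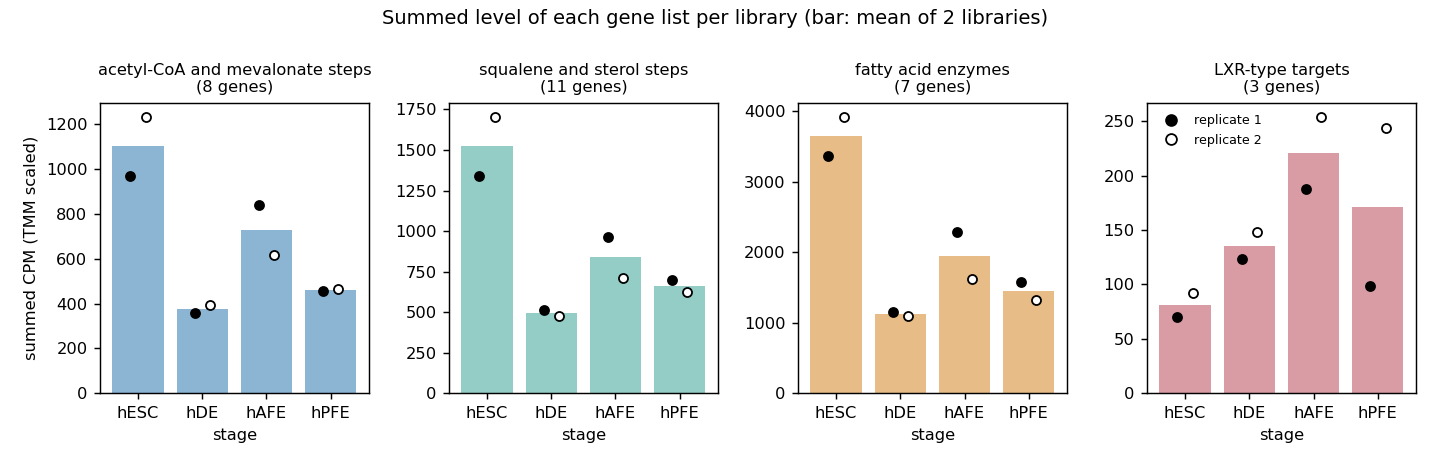
Summed CPM (y axis, from 0) of 4 of the gene groups at each stage (x axis), with a bar at the mean of 2 libraries and a point for each library. The 3 groups of synthesis enzymes are lowest in hDE, at 30.7% to 34.0% of the hESC mean, while the LXR-type genes are lowest in hESC, a sum made mostly of ABCA1.

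The squalene and sterol steps fell almost throughout in hDE, where 10 of 11 genes passed. The group summed to 1342 and 1705 CPM in hESC, 515 and 475 CPM in hDE, 964 and 713 CPM in hAFE and 700.00 and 622 CPM in hPFE. The hDE mean was 32.5% of the hESC mean, with single genes at 16.2% (FDFT1) to 106% (TM7SF2). In hAFE against hDE 3 genes rose, FDFT1, SQLE and LSS, the enzymes of the first 3 steps from farnesyl diphosphate to lanosterol. The other 8 had log2 fold changes above 0, from 0.18 to 0.88, none of which passed. In hPFE against hESC 9 fell.

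FDFT1 (ENSG00000079459.12, chr8:11795573-11839309, plus strand) encodes squalene synthase, the step that commits farnesyl diphosphate to sterols. It had 390.4 and 463 CPM in hESC, 68.6 and 69.2 CPM in hDE, 196 and 154 CPM in hAFE, and 160.2 and 143 CPM in hPFE. Both hDE libraries were below, and both hESC libraries above, every foregut library, and hAFE and hPFE overlapped. FDFT1 had the largest fall of any synthesis enzyme in hDE (log2 fold change -2.63 ± 0.17, adjusted p = 6.7e-05), to 16.2% of the hESC mean, and 6.98% of tested genes had a lower fold change. It rose in hAFE against hDE (log2 fold change 1.35 ± 0.17, adjusted p = 0.00107) and in hPFE was still 2.82-fold lower than in hESC (log2 fold change -1.49 ± 0.17, adjusted p = 0.0005601).

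SQLE, squalene epoxidase, an oxygen-dependent and rate-limiting step, had 181 and 245 CPM in hESC, 69.6 and 67.4 CPM in hDE, 200.1 and 113 CPM in hAFE, and 102 and 89.1 CPM in hPFE. The first hAFE library of SQLE was within the hESC range and the second was not. SQLE fell in hDE (log2 fold change -1.64 ± 0.27, adjusted p = 0.00283) and rose in hAFE against hDE (log2 fold change 1.19 ± 0.27, adjusted p = 0.0136, and 0.0849 to 0.0928 without either hDE library). LSS closes epoxidised squalene into lanosterol and had 78.4 and 92.7 CPM in hESC, 29.8 and 31.1 CPM in hDE, 85.9 and 61.1 CPM in hAFE, and 34.4 and 30.5 CPM in hPFE. LSS fell in hDE (log2 fold change -1.49 ± 0.19, adjusted p = 0.000901), rose in hAFE against hDE (log2 fold change 1.27 ± 0.19, adjusted p = 0.00227) and fell in hPFE against hAFE (log2 fold change -1.18 ± 0.19, adjusted p = 0.0133), and both hPFE libraries were close to the hDE level.

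CYP51A1, MSMO1, NSDHL and HSD17B7 remove the extra methyl groups of lanosterol, and all 4 fell in hDE. CYP51A1, the lanosterol demethylase, had 247 and 323 CPM in hESC, 110.5 and 103 CPM in hDE, 157 and 103 CPM in hAFE, and 110.4 and 104 CPM in hPFE. Its RNA fell in hDE (log2 fold change -1.42 ± 0.22, adjusted p = 0.00211) and had close levels in hDE and hPFE, with 0.29 ± 0.22 in hAFE against hDE (adjusted p = 0.346). MSMO1, the sterol methyl oxidase, had 137 and 201 CPM in hESC, 86.2 and 56.7 CPM in hDE, 105 and 89.4 CPM in hAFE, and 85.7 and 78.6 CPM in hPFE. MSMO1 fell in hDE (log2 fold change -1.24 ± 0.25, adjusted p = 0.00607, and 0.05098 without hESC replicate 2) and stayed lower in hPFE against hESC (log2 fold change -1.04 ± 0.25, adjusted p = 0.0115, and 0.0961 without hESC replicate 2). NSDHL, the dehydrogenase, showed the smallest fall of the 10 genes called in this group, with 10.6 and 12.02 CPM in the hDE libraries, against 17.1 and 21.7 CPM in the hESC libraries (log2 fold change -0.78 ± 0.26, adjusted p = 0.0428, and 0.0763 to 0.233 without either hESC library or either hDE library). The ketoreductase HSD17B7 had 14.1 and 9.05 CPM in the hDE libraries, against 32.8 and 41.3 CPM in the hESC libraries (log2 fold change -1.69 ± 0.31, adjusted p = 0.00416).

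EBP, SC5D and DHCR7 act late in the pathway, on the ring double bonds. EBP, the sterol isomerase, had 61.4 and 68.5 CPM in hESC, 35.2 and 33.03 CPM in hDE, 42.2 and 35.2 CPM in hAFE, and 24.04 and 22.4 CPM in hPFE. EBP fell in hDE (log2 fold change -0.93 ± 0.14, adjusted p = 0.00211) and fell again in hPFE against hAFE (log2 fold change -0.74 ± 0.15, adjusted p = 0.0274, and 0.0574 to 0.0848 without either hESC library, either hDE library, hAFE replicate 1 or hPFE replicate 2), a call lost in 10 of 19 alternatives, and its lowest stage was hPFE. DHCR7, which reduces 7-dehydrocholesterol to cholesterol, had 109 and 139.5 CPM in hESC, 55.8 and 60.8 CPM in hDE, 82.8 and 64.3 CPM in hAFE, and 52.5 and 53.9 CPM in hPFE. DHCR7 was higher in both hESC libraries than in any other library, and fell in hDE (log2 fold change -1.09 ± 0.18, adjusted p = 0.00243) and in hPFE against hESC (log2 fold change -1.22 ± 0.18, adjusted p = 0.001504).

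SC5D and TM7SF2 were the 2 sterol enzymes not called lower in hPFE against hESC. SC5D, the sterol desaturase, had 77.6 and 99.7 CPM in hESC, 24.1 and 22.96 CPM in hDE, 30.3 and 46.6 CPM in hAFE, and 87.6 and 63.7 CPM in hPFE. It fell in hDE (log2 fold change -1.91 ± 0.25, adjusted p = 0.00107), and in hPFE its libraries overlapped those of hESC (log2 fold change -0.23 ± 0.24, adjusted p = 0.466). Both hPFE libraries lay above both hAFE libraries, at 1.97-fold, with an adjusted p of 0.0531 that missed the threshold and ranged from 1.2e-05 to 0.199 over the 19 alternatives. TM7SF2, a sterol reductase, had 10.5 and 9.44 CPM in hESC, 10.9 and 10.3 CPM in hDE, 15.9 and 16.5 CPM in hAFE, and 13.8 and 9.02 CPM in hPFE. It passed in none of the 4 comparisons, and its hAFE libraries were the highest, at 162% of the hESC mean.

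Among the 5 SREBP regulators, which set how much of the factors reaches the nucleus, INSIG1, SREBF2 and SCAP fell in hDE, and SREBF1 and INSIG2 passed in none of the 4 comparisons. SREBF2 (ENSG00000198911.11, chr22:41833079-41907308, plus strand) had 163 and 175 CPM in hESC, 68.5 and 71.8 CPM in hDE, 129 and 121 CPM in hAFE, and 107 and 77.3 CPM in hPFE. No 2 stages overlapped in their libraries, and from high to low the order was hESC, hAFE, hPFE and hDE. SREBF2 fell to 41.5% of the hESC mean in hDE (log2 fold change -1.27 ± 0.17, adjusted p = 0.001098), rose in hAFE against hDE (log2 fold change 0.84 ± 0.17, adjusted p = 0.00842, and 0.0593 to 0.07301 without either hDE library) and was lower in hPFE than in hESC (log2 fold change -0.88 ± 0.17, adjusted p = 0.00479). SREBF1 had 25.6 and 26.7 CPM in hESC, 19.8 and 26.7 CPM in hDE, 25.8 and 18.4 CPM in hAFE, and 23.3 and 20.996 CPM in hPFE. Its libraries overlapped between hDE and hESC, with a log2 fold change of -0.17 ± 0.22 (adjusted p = 0.551), and between hAFE and hDE. Per kilobase of effective length, SREBF2 stood at 39.01 CPM and SREBF1 at 13.04 CPM in hESC, SREBF2 at 17.5 and SREBF1 at 11.7 in hDE, 33.8 and 12.4 in hAFE, and 23.9 and 15.1 in hPFE. SREBF2 was thus the more abundant of the 2 factor genes at each stage by stage means.

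INSIG1 (ENSG00000186480.12, chr7:155297776-155310235, plus strand) showed the largest fall of the 36 genes. It had 71.6 and 114 CPM in hESC, 10.8 and 11.01 CPM in hDE, 41.6 and 36.7 CPM in hAFE, and 31.1 and 36.9 CPM in hPFE. Both hDE libraries were far below every other library. In hDE it was 8.53-fold lower than in hESC (log2 fold change -3.09 ± 0.24, adjusted p = 0.000129), and 5.55% of tested genes had a lower fold change. In hAFE against hDE it rose 3.59-fold (log2 fold change 1.84 ± 0.24, adjusted p = 0.00124), the largest rise of the 36, and it held near that level in hPFE, 2.74-fold lower than in hESC (log2 fold change -1.45 ± 0.22, adjusted p = 0.00204). Its relative INSIG2 was low, with 7.87 and 6.897 CPM in hESC, 7.21 and 4.85 CPM in hDE, 6.21 and 5.12 CPM in hAFE, and 10.02 and 9.81 CPM in hPFE. In hDE against hESC the libraries of INSIG2 overlapped (log2 fold change -0.30 ± 0.27, adjusted p = 0.413), and both hPFE libraries were the highest of the 8, with 0.81 ± 0.27 in hPFE against hAFE (adjusted p = 0.112). Per kilobase, INSIG1 stood at 36.9 CPM in hESC and 4.72 in hDE, and INSIG2 at 3.103 in hESC and 2.27 in hDE.

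SCAP, the escort, had 92.4 and 91.9 CPM in hESC, 54.6 and 53.7 CPM in hDE, 66.8 and 66.5 CPM in hAFE, and 56.03 and 43.4 CPM in hPFE. Its replicates lay close together in hESC, hDE and hAFE, and the stages did not overlap except between hPFE and hDE. SCAP fell in hDE (log2 fold change -0.77 ± 0.14, adjusted p = 0.004797), to 58.7% of the hESC mean, and in hPFE against hESC (log2 fold change -0.89 ± 0.15, adjusted p = 0.00254).

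**Figure D4:**
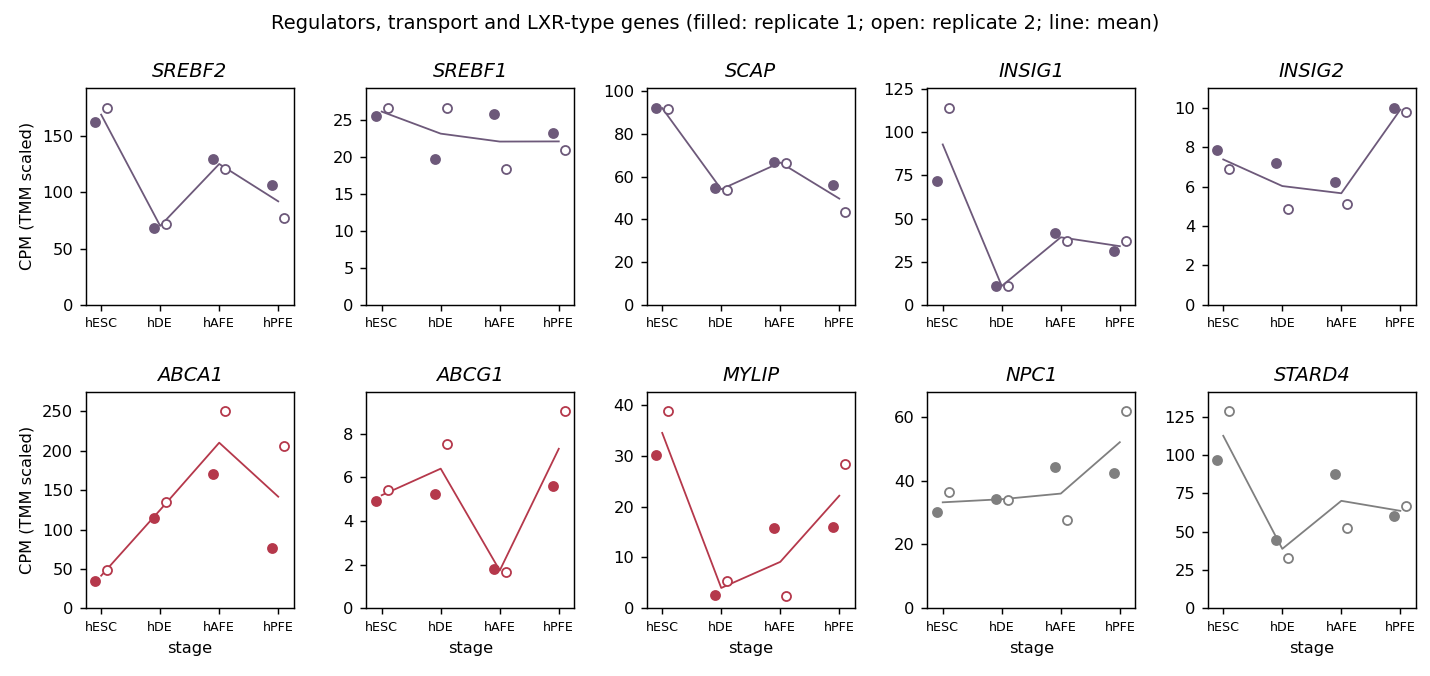
CPM (y axes, from 0, a scale of its own for each gene) of the 5 regulators, the 2 transport genes and the 3 LXR-type genes at each stage (x axes), with filled points for replicate 1, open points for replicate 2 and a line through the means. INSIG1, SREBF2, SCAP, STARD4 and MYLIP dip in hDE, the hDE libraries of SREBF1, INSIG2 and NPC1 overlap those of hESC, and ABCA1 is lowest in hESC.

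All 7 fatty acid enzymes fell in hDE, and 5 of them rose in hAFE against hDE. Their summed level was 3367 and 3924 CPM in hESC, 1148 and 1088 CPM in hDE, 2284 and 1614 CPM in hAFE and 1580.5 and 1329 CPM in hPFE. The hDE mean was 30.7% of the hESC mean, the hAFE mean 53.5% and the hPFE mean 39.9%. In hPFE against hAFE 0 of 7 passed edgeR's quasi-likelihood test, with all 7 log2 fold changes below 0, from -0.57 to -0.15, 2 at an unadjusted p under 0.05, and 1 called by DESeq2, 0 by voom. Against hESC 6 fell in hPFE, and FADS1 did not pass.

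SCD (ENSG00000099194.5, chr10:100347124-100364834, plus strand) encodes the stearoyl-CoA desaturase, which puts the double bond into oleate. It was the most abundant of the 36 genes per kilobase in hESC, at 315 CPM, and had 1495 and 1762 CPM in hESC, 373 and 336 CPM in hDE, 819 and 471 CPM in hAFE, and 449 and 459 CPM in hPFE. The hESC libraries were above all others, and the second hAFE library lay near the hPFE libraries. SCD fell in hDE to 21.8% of the hESC mean (log2 fold change -2.20 ± 0.26, adjusted p = 0.000606), rose in hAFE against hDE (log2 fold change 0.86 ± 0.25, adjusted p = 0.0331, and 0.0583 to 0.171 without either hESC library, either hDE library or hAFE replicate 1) and was lower in hPFE than in hESC (log2 fold change -1.84 ± 0.25, adjusted p = 0.00126). The rise in hAFE was also lost where only the 4 libraries compared were fitted.

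ACLY makes cytosolic acetyl-CoA from citrate, ACACA makes malonyl-CoA and FASN builds palmitate. ACLY had 542 and 614 CPM in hESC, 233 and 214 CPM in hDE, 329 and 259 CPM in hAFE, and 211 and 184 CPM in hPFE. ACLY fell in hDE (log2 fold change -1.37 ± 0.17, adjusted p = 0.000719) and was lowest in hPFE, at 34.2% of the hESC mean (log2 fold change -1.55 ± 0.17, adjusted p = 0.000496). ACACA had 299 and 354 CPM in hESC, 106 and 112 CPM in hDE, 254 and 168 CPM in hAFE, and 167 and 137 CPM in hPFE. ACACA fell in hDE (log2 fold change -1.58 ± 0.22, adjusted p = 0.00125) and rose in hAFE against hDE (log2 fold change 0.95 ± 0.22, adjusted p = 0.0137, and 0.0528 to 0.0971 without either hDE library or hAFE replicate 1). FASN had 289.9 and 303 CPM in hESC, 119 and 119 CPM in hDE, 186 and 116 CPM in hAFE, and 156 and 87.1 CPM in hPFE. The hESC libraries of FASN stood apart from all others, while those of hDE, hAFE and hPFE overlapped, with a fall in hDE against hESC (log2 fold change -1.32 ± 0.30, adjusted p = 0.0108, and 0.0588 to 0.0709 without hESC replicate 2 or either hDE library) and 0.34 ± 0.30 in hAFE against hDE (adjusted p = 0.421).

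ELOVL6 lengthens palmitate, and the neighbouring genes FADS1 and FADS2 on chromosome 11 make polyunsaturated fatty acids. ELOVL6 had 146 and 163 CPM in hESC, 39.7 and 48.6 CPM in hDE, 81.01 and 62.7 CPM in hAFE, and 73.6 and 56.2 CPM in hPFE. It fell in hDE (log2 fold change -1.80 ± 0.20, adjusted p = 0.000488), and it rose in hAFE against hDE (log2 fold change 0.70 ± 0.20, adjusted p = 0.0304, and 0.0571 to 0.196 without either hESC library, either hDE library or hAFE replicate 1). FADS1 had 229.8 and 263 CPM in hESC, 123 and 111 CPM in hDE, 258 and 201 CPM in hAFE, and 236 and 174 CPM in hPFE. FADS1 fell in hDE (log2 fold change -1.07 ± 0.20, adjusted p = 0.00426), rose in hAFE against hDE (log2 fold change 0.97 ± 0.20, adjusted p = 0.00858, and 0.0514 to 0.07704 without either hDE library) and stood at 93.3% of the hESC mean in hAFE and 83.3% in hPFE. FADS2 had 367 and 466 CPM in hESC, 154 and 148 CPM in hDE, 356 and 337 CPM in hAFE, and 287 and 231 CPM in hPFE. It fell in hDE (log2 fold change -1.46 ± 0.17, adjusted p = 0.000606) and rose in hAFE against hDE (log2 fold change 1.20 ± 0.17, adjusted p = 0.00181), to 83.3% of the hESC mean. By stage means FADS1 and FADS2 were the fatty acid enzymes closest to the stem cell level in both foregut stages.

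Per kilobase of effective length the order of the enzymes differed between stages. In hESC the highest means were SCD at 315 CPM, FDFT1 at 243, FDPS at 209 and FADS2 at 181. In hDE they were FDPS at 84.3, SCD at 68.6 and FADS2 at 64.7, with FDFT1 in the eighth place at 40.8. FADS2 was the highest in hAFE, at 152, and in hPFE, at 115. These orders use stage means, and neighbours in them were not tested against each other.

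STARD4 moves sterols between membranes and NPC1 releases cholesterol from lysosomes. STARD4 had 96.5 and 129 CPM in hESC, 44.7 and 32.95 CPM in hDE, 87.8 and 52.5 CPM in hAFE, and 60.4 and 66.8 CPM in hPFE. Both hDE libraries were the lowest, and STARD4 fell in hDE (log2 fold change -1.54 ± 0.27, adjusted p = 0.00377). Its rise in hAFE against hDE (log2 fold change 0.86 ± 0.27, adjusted p = 0.0474, and 0.0535 to 0.258 without either hESC library, either hDE library, hAFE replicate 1 or either hPFE library) was lost in 9 of 19 alternatives, with adjusted p from 5.5e-05 to 0.258. NPC1 had 30.03 and 36.3 CPM in hESC, 34.4 and 33.97 CPM in hDE, 44.1 and 27.7 CPM in hAFE, and 42.3 and 61.7 CPM in hPFE. It passed in none of the 4 comparisons, with 0.04 ± 0.26 in hDE against hESC (adjusted p = 0.912), and both hPFE libraries were above both hESC libraries (log2 fold change 0.65 ± 0.26, adjusted p = 0.0736).

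The 3 LXR-type genes did not move as a group. ABCA1 (ENSG00000165029.15, chr9:104781002-104928237, minus strand), the transporter that loads cholesterol onto lipid-poor apolipoprotein, had 34.6 and 48.3 CPM in hESC, 115 and 135 CPM in hDE, 170.2 and 250.01 CPM in hAFE, and 76.98 and 206 CPM in hPFE. Both hESC libraries were below every other library, and the hPFE libraries were far apart. ABCA1 rose 3.01-fold in hDE against hESC (log2 fold change 1.59 ± 0.43, adjusted p = 0.0206, and 0.0686 to 0.133 without either hESC library or either hDE library), alone among the 36 genes, and the call was lost in 6 of 19 alternatives. It also rose in hPFE against hESC (log2 fold change 1.77 ± 0.43, adjusted p = 0.01302, and 0.0531 to 0.0957 without either hESC library), again alone among the 36, and hAFE against hDE gave 0.75 ± 0.42 (adjusted p = 0.216). ABCG1, a second cholesterol exporter, was low, with 4.93 and 5.43 CPM in hESC, 5.25 and 7.53 CPM in hDE, 1.78 and 1.68 CPM in hAFE, and 5.58 and 9.02 CPM in hPFE. Both hAFE libraries were below all others. ABCG1 fell in hAFE against hDE (log2 fold change -1.88 ± 0.35, adjusted p = 0.00632, and 0.05203 without hDE replicate 2) and rose in hPFE against hAFE (log2 fold change 2.07 ± 0.35, adjusted p = 0.0172), in each case alone among the 36 genes in that direction. Each of those 2 calls was lost in 3 of 19 alternatives, the second of them also where only the 4 libraries compared were fitted.

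MYLIP had 30.2 and 38.7 CPM in hESC, 2.67 and 5.36 CPM in hDE, 15.8 and 2.49 CPM in hAFE, and 15.9 and 28.4 CPM in hPFE. Its hDE libraries were low, and the hAFE libraries differed more from each other than those of any other of the 36 genes in that stage. MYLIP fell in hDE (log2 fold change -3.08 ± 0.76, adjusted p = 0.0148, and 0.05802 to 0.108 without hESC replicate 2 or either hDE library), the second largest fall of the 36, with the largest SE of the set. The value in hPFE against hESC was -0.64 ± 0.68 (adjusted p = 0.468).

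**Figure D5:**
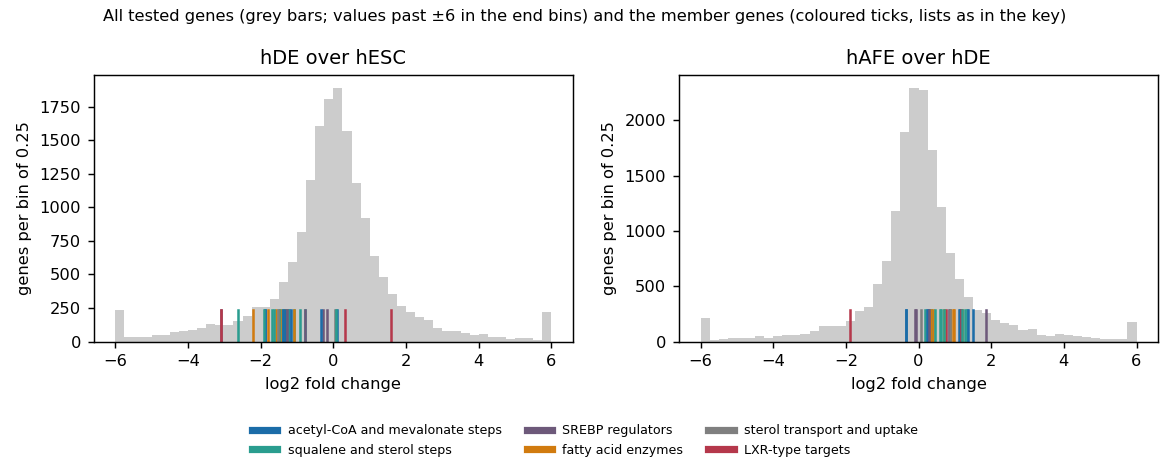
Number of tested genes per bin of 0.25 in log2 fold change (grey bars, with values past -6 and 6 in the end bins) and the 36 member genes as ticks coloured by role, in hDE over hESC (left) and hAFE over hDE (right). Most ticks lie left of 0 in the left panel, with a median of -1.32, and right of 0 in the right panel, with a median of 0.70.

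Library by library, the hDE values of these genes mostly lay below those of hESC and of hAFE. All tested genes were also mostly separate, but lay below and above in similar shares. Both hDE libraries lay below both hESC libraries for 28 of 36 genes and above them for 2, where 40.7% of all tested genes lay below and 39.1% above. Both hAFE libraries lay above both hDE libraries for 25 genes and below them for 3, against 35.1% and 35.2% of all genes. Both hPFE libraries lay below both hAFE libraries for 18 genes and above them for 4, against 26.6% and 23.1%. Both hPFE libraries lay below both hESC libraries for 27 genes and above them for 4, against 38.2% and 37.0%.

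The genes also differed together between libraries of the same stage. In hESC, replicate 2 was above replicate 1 for 31 of 36 genes, with a median log2 difference of 0.25, where 48.3% of all tested genes were higher in replicate 2. In hAFE, replicate 1 was above replicate 2 for 32 of 36 genes, with a median log2 difference (replicate 2 over replicate 1) of -0.36, where 50.9% of all genes were higher in replicate 1. In hPFE, replicate 1 was above replicate 2 for 24 of 36 genes, and in hDE for 19. The part of these library differences in the comparisons between stages was not tested beyond leaving each library out. Without hAFE replicate 1, 12 of the 36 genes rose in hAFE against hDE with a median of 0.42, and without hAFE replicate 2, 18 rose with a median of 0.76. Without hDE replicate 1, 7 rose with a median of 0.69, and without hDE replicate 2, 6 rose with a median of 0.67. In hDE against hESC between 23 and 28 genes fell whichever library was left out. In hPFE against hESC 16 fell without hESC replicate 2. In hPFE against hAFE, where 4 genes were called, 9 were called without hAFE replicate 2 and 2 without either hESC or hDE library.

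The call of a gene depended on the scale in the comparisons across the re-analysed and the other libraries. On the deposited TPM values, used without TMM scaling, the median of all tested genes moved by -0.27 in hDE against hESC, 0.50 in hAFE against hDE, 0.14 in hPFE against hAFE and 0.36 in hPFE against hESC, as log2(TPM + 1). Of the calls over all genes, 17.7%, 89.5%, 89.7% and 79.7% were higher in those comparisons on that scale, against 48.4%, 49.5%, 63.8% and 48.1% after TMM scaling. Relative to the median of all genes on that scale, the median of the 36 genes stood at -1.40, 0.76, -0.24 and -0.58, against -1.31, 0.69, -0.33 and -1.003 after TMM scaling. Of the 25 calls in hPFE against hESC, the 5 that held under every alternative were the falls of ACAT2, MVD, EBP, ACLY and SCD. No gene called among the 36 changed direction under any of the 19 alternatives in any of the 4 comparisons. Removing mitochondrial and 7SL genes before scaling left the counts in hDE against hESC at 28 lower and 1 higher.

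Genes of the same pathways outside the 36 rose in hDE at about the share of all tested genes and fell at a higher share. Of a list of 54 such genes, 52 passed the count filter. In hDE against hESC 18 fell and 10 rose, with a median of -0.17. Those were 34.6% and 19.2% of the 52, against 21.6% and 20.3% of all tested genes. In hAFE against hDE 16 fell and 8 rose (30.8% and 15.4%), against 15.2% and 15.0% of all genes. In hPFE against hAFE 1 fell and 3 rose (1.92% and 5.77%), against 2.71% and 4.77%. In hPFE against hESC 25 fell and 10 rose (48.1% and 19.2%), against 23.3% and 21.6%. Of the 9 isoprenoid branch genes, whose products leave the mevalonate pathway for dolichol, ubiquinone and protein prenylation, 3 fell in hDE against hESC and 2 fell in hAFE against hDE, and the others did not pass. Those falls were 33.3% and 22.2% of the isoprenoid list, against 21.6% and 15.2% of all genes. Of the other 9 genes of SREBP processing and LXR receptors, 4 rose in hDE against hESC and the other 5 did not pass. The 4 were 44.4% of that list, against 20.3% of all genes called higher. Of those rises, that of the protease gene MBTPS2 was lost in 10 of 19 alternatives, that of the receptor gene RXRA in 9 and that of C12orf49 in 4, single libraries left out among them. The receptor gene NR1H3 passed as lower in 10 of 19. By DESeq2 2 of the 9 passed. On log2(TPM + 1) 2 of the 9 passed as well, but the fall of NR1H3 was among them. The difference between these lists and the 36 genes was not tested.

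The largest changes among them included genes of sterol storage and lipoprotein uptake. SOAT1, which esterifies cholesterol for storage, averaged 39.6 ± 0.168 CPM in hDE and 6.65 ± 0.697 CPM in hESC (SD, n = 2 each, log2 fold change 2.57 ± 0.18, adjusted p = 8.2e-05). The lipoprotein receptor VLDLR averaged 219 ± 26.4 CPM in hDE and 38.9 ± 18.6 CPM in hESC (log2 fold change 2.49 ± 0.74, adjusted p = 0.0291, and 0.0766 to 0.1698 without either hESC library or either hDE library). The largest decreases in hDE were those of ACACB (log2 fold change -2.12 ± 0.44, adjusted p = 0.00757, and 0.0508 without hDE replicate 1), which makes malonyl-CoA at mitochondria, and of the citrate carrier SLC25A1 (log2 fold change -2.02 ± 0.17, adjusted p = 0.000164). In hAFE against hDE the largest rise was that of SMPDL3A, with 9.38 and 60.8 CPM in the hAFE libraries, against 2.23 and 2.68 CPM in the hDE libraries (log2 fold change 3.83 ± 0.88, adjusted p = 0.0149, and 0.0976 to 0.105 without either hDE library). Its hAFE libraries lay far apart, and without hAFE replicate 2 its log2 fold change was 1.93. The next largest rise was that of GRAMD1C (log2 fold change 1.59 ± 0.50, adjusted p = 0.044996, and 0.0624 to 0.236 without either hESC library, either hDE library or hAFE replicate 1). The largest falls were those of the sterol hydroxylase CYP27A1 (log2 fold change -3.39 ± 0.52, adjusted p = 0.00271) and the malic enzyme ME1 (log2 fold change -1.96 ± 0.34, adjusted p = 0.00476). In hPFE against hAFE ME1 rose (log2 fold change 2.23 ± 0.34, adjusted p = 0.0123), as did SCARB1, a receptor of high-density lipoprotein (log2 fold change 1.23 ± 0.24, adjusted p = 0.0277, and 0.0528 to 0.0843 without either hESC library, either hDE library, hAFE replicate 1 or hPFE replicate 1), and PNPLA3 fell (log2 fold change -1.41 ± 0.34, adjusted p = 0.0465, and 0.0737 to 0.119 without either hESC library, either hDE library, hAFE replicate 2 or either hPFE library). In hPFE against hESC SOAT1 rose most (log2 fold change 2.16 ± 0.18, adjusted p = 0.0001801), and LRP8 (log2 fold change -2.98 ± 0.35, adjusted p = 0.000734) and PNPLA3 (log2 fold change -2.17 ± 0.34, adjusted p = 0.00206) fell most. Of 19 alternatives, 6 ended the rise of VLDLR and 1 the fall of ACACB in hDE against hESC. The rises of SMPDL3A and GRAMD1C in hAFE against hDE were lost in 2 and 9, and the fall of ME1 there in 2. The rises of ME1 and SCARB1 in hPFE against hAFE were lost in 2 and 8, the fall of PNPLA3 there in 13, and its fall in hPFE against hESC in 1.

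Markers of macrophages, and most markers of adipocytes and hepatocytes, were low. All 4 macrophage markers were under 1 CPM in every library, as were 4 of 5 adipocyte markers. The exception was LPL, which put the sum of that list at 5.47 to 7.97 CPM in hESC, 0.869 to 0.890 CPM in hDE, 0.366 to 0.463 CPM in hAFE and 13.7 to 51.4 CPM in hPFE. The 6 hepatocyte markers summed to 14.6 to 22.4 CPM in hDE, against 0.901 to 2.77 CPM in hESC, through APOA1 and APOA2, with the other 4 under 1 CPM there. Trophoblast markers summed to 5.48 to 7.51 CPM in hESC, 0.712 to 1.09 CPM in hDE, 22.2 to 92.2 CPM in hAFE and 38.4 to 218 CPM in hPFE. Of these, CGA had 4.56 and 69.0 CPM in hAFE, and 0.0607 and 2.02 CPM in hPFE. KRT7 had 3.24 and 1.75 CPM in hAFE, below its 7.39 and 5.48 CPM in hESC, and 12.4 and 162 CPM in hPFE. TP63 had 1.32 and 7.75 CPM in hAFE, and 14.5 and 41.1 CPM in hPFE. ELF5 had 10.4 and 8.92 CPM in hAFE, and 5.22 and 8.01 CPM in hPFE. GATA3 had 2.71 and 4.83 CPM in hAFE, and 5.04 and 4.91 CPM in hPFE. HAND1 had 0.0 CPM in both hAFE libraries, and 1.15 and 0.0 CPM in hPFE. Neural crest and mesenchyme markers summed to 20.5 to 22.1 CPM in hESC, 17.002 to 20.5 CPM in hDE, 8.04 to 33.4 CPM in hAFE and 68.7 to 94.2 CPM in hPFE. In hPFE that sum was mostly COL1A1, with 84.7 and 62.9 CPM, while SOX10 and FOXD3 had 0.0 CPM in both libraries. Whether cells of these types were present was not tested, nor was their part in the levels of the 36 genes. FDPS and HSD17B7 have close pseudogene copies between which reads could be split, and their levels are uncertain to the extent that they were. The deposited posterior SD of the counts was 0.0 of the count in every library for FDPS and at most 0.00323 for HSD17B7. It was at most 0.00754 for any of the 36 genes, in GGPS1.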

How the data were processed

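Total RNA depleted of ribosomal RNA was sequenced in paired ends as strand-specific libraries, per the labels' protocols. The gene tables are RSEM output, made with an aligner not given in the sources used here. Per the submitters' processing notes the build was hg38, and DESeq2 is named there with no version and no stated role. Expected counts, as deposited, are estimated: RSEM splits a read that maps to more than 1 gene. The deposited TPM values are per the file headers transcript shares that allow for effective length, and the deposited effective lengths and posterior SDs served in an alternative, for levels per kilobase and as a check. Each table had 59526 rows, of which 58780 matched GENCODE 29, and 746 others held 0 counts.

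Expected counts were rounded and filtered with filterByExpr, and 1 model with 4 stage terms over all 8 libraries (4 residual degrees of freedom) was fitted in R 4.3.3 with edgeR 4.0.16, with TMM scaling, the quasi-likelihood test and Benjamini-Hochberg adjustment over all 17446 genes. The SE is the absolute log2 fold change over the square root of the F statistic. The step was tested on simulated data. The 19 alternatives include DESeq2 1.42.0, limma 3.58.1 on log2(TPM + 1), and voom with weights per stage. They also include other scalings and filters, a replicate block and leaving out each library. A stage left with 1 library is assumed to vary like the others. Precision is limited by the counts per library and by 2 libraries per stage. The 36 genes, the other lists and the tests were chosen with earlier results of these data known, so no p is given for a list. All 36 genes are described, and of the other lists, in each comparison, the 2 called genes with the largest rise and the 2 with the largest fall, apart from 1 gene that is not reported here.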

Additional observations from a re-analysis of the deposited data

How the results depend on the processing

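Over 19 alternatives and 4 comparisons, 2420 of 2736 single-gene values for the 36 genes kept their direction and their side of the threshold, 151 no longer passed, 83 newly passed and 82 log2 fold changes changed sign. All 82 belong to genes that had not passed in that comparison, and 4 of them passed with the other sign, those of SREBF1 and INSIG2 in hAFE against hDE on the TPM scales, where the median of all genes was itself 0.50 for log2(TPM + 1) and 0.79 for log2(TPM + 0.1). The values that follow are log2 fold changes. Opposite signs for hDE against hESC were found on log2(TPM + 1) for GGPS1 -0.51, TM7SF2 -0.17, NPC1 -0.26 and ABCG1 -0.14. Those on log2(TPM + 0.1) for hDE were GGPS1 -0.58, TM7SF2 -0.20, NPC1 -0.32 and ABCG1 -0.28. hDE against hESC also gave GGPS1 -0.07 with effective length offsets. Leave-outs for hDE against hESC ranged over SREBF1 -0.44 to 0.02, NPC1 -0.10 to 0.19 and ABCG1 -0.01 to 0.54. Opposite signs for hAFE against hDE were found on log2(TPM + 1) for PMVK 0.35, GGPS1 0.62, SREBF1 0.81 and INSIG2 0.75. Those on log2(TPM + 0.1) for hAFE were PMVK 0.54, GGPS1 0.71, SREBF1 0.95 and INSIG2 1.30. hAFE against hDE also gave SREBF1 0.10 and INSIG2 0.53 with effective length offsets. Leave-outs for hAFE against hDE ranged over MVD -0.03 to 0.50, FDPS -0.06 to 0.46, CYP51A1 -0.04 to 0.57, SREBF1 -0.34 to 0.17, INSIG2 -0.34 to 0.22, FASN -0.04 to 0.65, NPC1 -0.30 to 0.37 and MYLIP -0.71 to 1.96. Opposite signs for hPFE against hAFE were found on log2(TPM + 1) for FDFT1 0.12, CYP51A1 0.03, MSMO1 0.01, HSD17B7 0.15, INSIG1 0.00, ACACA 0.10, ELOVL6 0.23, FADS1 0.07 and STARD4 0.32. Those on log2(TPM + 0.1) for hPFE were FDFT1 0.12, CYP51A1 0.03, MSMO1 0.01, HSD17B7 0.17, ACACA 0.10, ELOVL6 0.25, FADS1 0.07 and STARD4 0.34. hPFE against hAFE also gave GGPS1 -0.02 and STARD4 0.03 with effective length offsets. Leave-outs for hPFE against hAFE ranged over PMVK -0.66 to 0.04, FDPS -0.62 to 0.03, GGPS1 -0.15 to 0.21, CYP51A1 -0.56 to 0.05, HSD17B7 -0.61 to 0.16, SREBF1 -0.23 to 0.26, FASN -0.80 to 0.07, ELOVL6 -0.36 to 0.04, FADS1 -0.41 to 0.03 and STARD4 -0.47 to 0.27. Opposite signs for hPFE against hESC were found on log2(TPM + 1) for MVK 0.40, GGPS1 0.33, SC5D 0.32, SREBF1 0.74 and FADS1 0.44. Those on log2(TPM + 0.1) for hPFE were MVK 0.48, GGPS1 0.36, SC5D 0.33, SREBF1 0.82 and FADS1 0.45. hPFE against hESC also gave SREBF1 0.20 with effective length offsets. Leave-outs for hPFE against hESC ranged over MVK -0.63 to 0.07 and TM7SF2 -0.15 to 0.46.

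On the TPM scales 31 of the 36 genes were called in hAFE against hDE, and 12 and 10 in hPFE against hESC, and log2(TPM + 0.1) gave 8043 calls over all genes in hAFE against hDE. In hPFE against hAFE, with 1306 genes and 4 of the 36 called, the counts were 3234 and 12 with no count filter, 52 and 0 with only the 4 libraries compared, 447 and 1 with voom, 651 and 1 on log2(TPM + 1), 825 and 1 on log2(TPM + 0.1), and 7 of the 36 with DESeq2. The fit to 4 libraries has fewer samples. In hDE against hESC that fit gave more calls over all genes, 10126 against 7304 in the main fit. The cause of these differences between settings was not tested.

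Leaving out each library gave 3695 to 8465 genes called in hDE against hESC, 2435 to 6363 in hAFE against hDE, 479 to 1552 in hPFE against hAFE and 3822 to 8422 in hPFE against hESC. Of the 36 genes, 23 to 29 were called in hDE against hESC, 6 to 19 in hAFE against hDE, 2 to 9 in hPFE against hAFE and 16 to 26 in hPFE against hESC. The replicate differences of any 2 stages correlated at -0.04 to 0.06, which shows no shared effect of replicate number. The labels do not tell whether replicate numbers pair the samples, and these correlations cannot decide it. With a replicate block 28 of the 36 genes were called in hDE against hESC, 15 in hAFE against hDE, 3 in hPFE against hAFE and 25 in hPFE against hESC, and 6909, 4941, 1072 and 7494 over all genes. The low genes PMVK, INSIG2 and ABCG1, under 10.1 CPM in every library, limit what these depths can show.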
